A study of Mus musculus with 12 samples.

Results

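The complement system was followed through 31 genes of components and regulators, all of which were found by Ensembl identifier and GENCODE symbol among the 55414 genes counted in mouse liver. Complement is a cascade of plasma proteins that marks and lyses targets, and the liver makes most of them. The classical pathway starts when C1q binds antibody or other ligands and activates the proteases C1r and C1s, while the lectin pathway starts with mannose-binding lectins or ficolins and the MASP proteases. Both cleave C4 and C2, the alternative pathway amplifies C3 cleavage with factors B, D and P, and all routes end in the membrane attack complex of C5b, C6, C7, C8 and C9. The genes were divided into classical (7 genes, C2 and C4b among them), lectin (5), alternative (4, C3 among them) and terminal (6) components, 5 soluble regulators, 2 membrane regulators and 2 anaphylatoxin receptors.

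Livers came from 12 female mice of the label genotype C57Bl/6J, aged 8 to 12 weeks per the study's methods, in 4 groups of 3. The first injection was 0.9% NaCl or 300 mg/kg FeSO4, a dose of iron that causes lethal shock in this model. After 6 h the mice received PBS or 10 mg/kg dexamethasone (DEX), a synthetic glucocorticoid that binds the glucocorticoid receptor. Livers were taken 2 h later, 8 h after the first injection. The groups are called NaCl/PBS, NaCl/DEX, FeSO4/PBS and FeSO4/DEX, and no group was left uninjected. Whole liver was sequenced, so every value below is a mixture of hepatocytes and the other liver cells.

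Library totals lay between 16335651 and 23827340 counts, and replicate mice varied well beyond counting noise. FeSO4/PBS mouse 1 stood apart over all genes. Its chi-square per gene, which sets differences between 2 libraries against counting noise, was 89.5 and 71.4 against its group mates. All other pairs of replicate mice gave 18.3 to 37. Levels are normalized counts, which are read counts scaled with edgeR's TMM factors to a common depth. Fold changes are log2 fold changes (LFC) with their standard error (SE), and a gene was called at an edgeR FDR of 0.05 or less in the quasi-likelihood test over 13857 tested genes. Of the 31 genes, 30 passed the filter on low counts and were tested. Cfd, which encodes the protease factor D, was not tested, with 0 to 4 reads per library. The 10 hepatocyte markers summed to between 98442 and 117429 CPM (counts relative to the TMM-scaled library total) in NaCl/PBS livers. The choice of scaling bears on every direction given here. Scaling by library size alone put the median LFC of all tested genes after FeSO4 at -0.34, against -0.015 with TMM factors, and it shifted the complement genes down with all others.

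FeSO4 changed 10 complement genes, 8 of them by less than 1 on the log2 scale, and in no pathway were all tested genes called. Compared with NaCl/PBS livers, FeSO4/PBS livers had 3 complement genes called higher (Masp1, Vtn and Clu) and 7 called lower (C1qa, C1qc, Hc, C8a, C4bp, Cd59a and C3ar1). These 10 of 30 make 33.3%, beside 54.5% of all tested genes, where 27.2% were called higher and 27.3% lower. C8a and C3ar1 also passed an LFC beyond 1 in size, which is 6.67% of the tested members beside 27.2% of all tested genes. The median size of the LFC was 0.283 among the members and 0.575 over all genes, and the signed medians were -0.13 and -0.015. For 26 of the 30 members the 95% confidence interval lay within 1 of zero. In 14 members the FeSO4/PBS and NaCl/PBS mice did not overlap, 4 higher and 10 lower, beside 60% of all tested genes. Scaled by library size alone, 0 members were called higher and 22 lower, so the split between directions depends on the scaling. All 7 lower calls remained under that scaling, whereas Masp1 (LFC 0.20, edgeR FDR 0.262), Vtn (LFC 0.34, edgeR FDR 0.0713) and Clu (LFC 0.16, edgeR FDR 0.162) were no longer called.

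**Figure D1:**
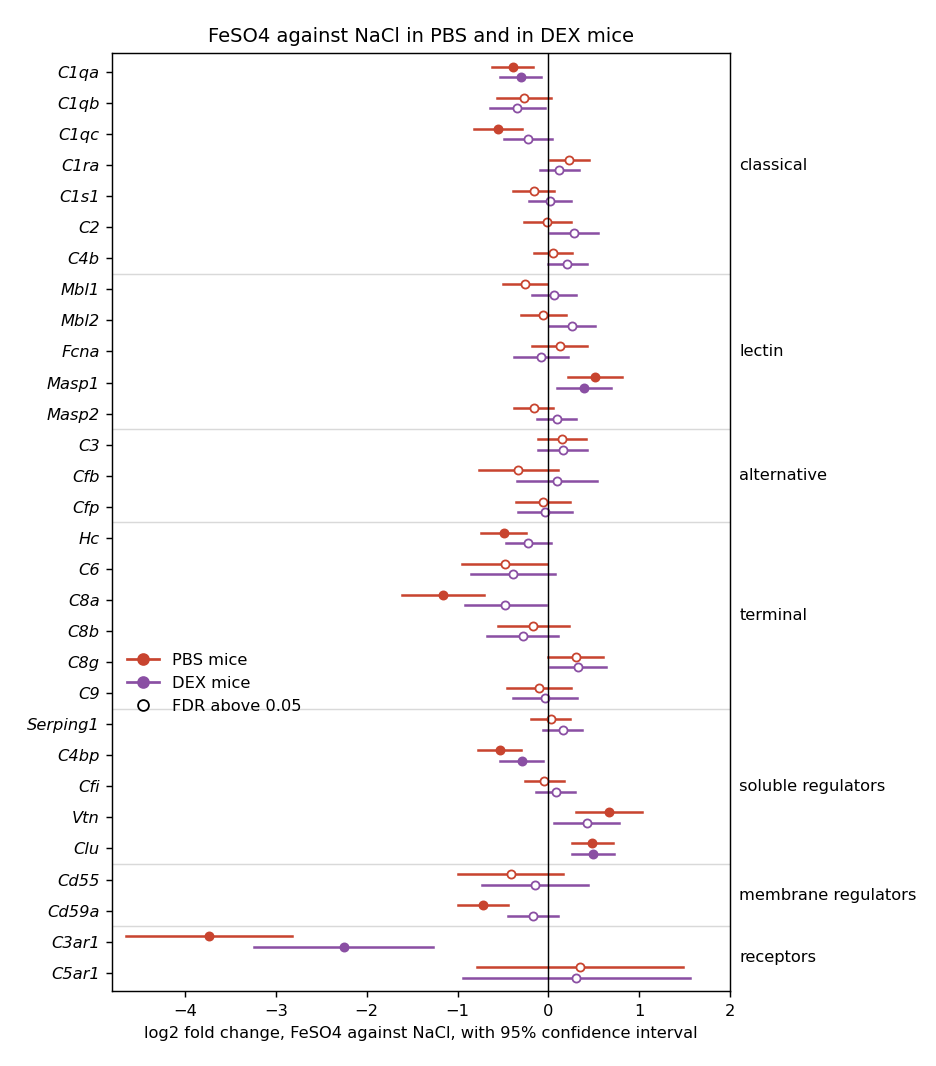
Log2 fold changes of the 30 tested complement genes after FeSO4, in PBS mice (red) and DEX mice (purple), with 95% confidence intervals; filled points have an edgeR FDR of 0.05 or less. C3ar1 and C8a lie lowest in PBS mice, most intervals of the other genes lie within 1 of zero, and under library-size scaling the values of Masp1, Vtn and Clu stay above zero in PBS mice but are no longer called.

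The promoters of 5 genes are shown because they are the members with the largest falls (C3ar1 and C8a), those with the larger rises among the soluble regulators (Vtn and Clu), and the most abundant member (C3), which was not called. Each runs 5′ to 3′ over 300 bases of GRCm39 (the build called mm39), from 250 bases upstream to 50 bases from the annotated start of the Ensembl canonical transcript in GENCODE vM39, which is position 251 of the window. Capitals mark the matches to the searched motifs on either strand. C3ar1 lies on the minus strand at chr6:122833073-122833372, C8a on the minus strand at chr4:104733565-104733864, and Vtn on the plus strand at chr11:78389696-78389995. Clu lies on the plus strand at chr14:66205676-66205975, and C3 on the minus strand at chr17:57535106-57535405.
C3ar1: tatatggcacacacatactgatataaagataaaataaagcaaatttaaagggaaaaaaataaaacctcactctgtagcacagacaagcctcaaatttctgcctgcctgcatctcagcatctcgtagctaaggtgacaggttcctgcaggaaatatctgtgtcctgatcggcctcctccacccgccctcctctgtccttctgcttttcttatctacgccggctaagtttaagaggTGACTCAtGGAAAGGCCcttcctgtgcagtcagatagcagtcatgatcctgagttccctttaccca
C8a: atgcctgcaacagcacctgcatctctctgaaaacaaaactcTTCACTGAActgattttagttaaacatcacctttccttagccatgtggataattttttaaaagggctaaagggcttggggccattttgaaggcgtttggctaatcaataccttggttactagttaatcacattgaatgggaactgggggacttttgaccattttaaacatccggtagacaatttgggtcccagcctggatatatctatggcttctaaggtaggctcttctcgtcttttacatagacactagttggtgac
Vtn: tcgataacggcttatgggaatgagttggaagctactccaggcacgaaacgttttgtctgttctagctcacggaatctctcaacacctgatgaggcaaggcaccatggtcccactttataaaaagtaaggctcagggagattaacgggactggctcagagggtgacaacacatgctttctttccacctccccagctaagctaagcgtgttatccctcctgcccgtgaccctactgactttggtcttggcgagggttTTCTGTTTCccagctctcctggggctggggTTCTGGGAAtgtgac
Clu: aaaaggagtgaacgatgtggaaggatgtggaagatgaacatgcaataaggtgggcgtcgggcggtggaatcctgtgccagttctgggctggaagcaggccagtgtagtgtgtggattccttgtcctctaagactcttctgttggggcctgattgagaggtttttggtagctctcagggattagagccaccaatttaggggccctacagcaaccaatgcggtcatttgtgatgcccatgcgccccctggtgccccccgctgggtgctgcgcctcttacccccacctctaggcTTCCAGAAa
C3: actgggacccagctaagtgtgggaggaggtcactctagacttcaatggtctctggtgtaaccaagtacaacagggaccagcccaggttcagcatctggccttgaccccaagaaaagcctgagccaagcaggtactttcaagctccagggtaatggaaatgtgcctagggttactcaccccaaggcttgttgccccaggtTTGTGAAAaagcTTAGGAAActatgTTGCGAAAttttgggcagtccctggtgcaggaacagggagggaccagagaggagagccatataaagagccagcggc

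The motifs were those of NF-kB (GGNNTTTCC), STAT factors (TTCNNNGAA), C/EBP (TTNNGNAA), AP-1 (TGANTCA), the antioxidant response element (TGACNNNGC), the interferon-stimulated response element (GAAANNGAA) and the palindromic glucocorticoid response element, AGAACA and its reverse complement with 3 bases between. The C3ar1 window held an AP-1 match at position 235 and an NF-kB match at position 243, next to the start site. A STAT match stood at position 42 in C8a and at position 286 in Vtn, and Vtn also had an interferon-type match at position 256. C3 carried 3 C/EBP matches close together, at positions 200, 212 and 225, while Clu had 1 at position 292. Over all 31 members, 16 windows (51.6%) held the C/EBP motif, beside 36.4% of the 13818 promoters of tested genes. The STAT motif was found in 5 windows (16.1%, beside 7.59%), the interferon motif in 5 (16.1%, beside 8.36%) and the NF-kB motif in 2 (6.45%, beside 6.23%). AP-1 was found in 2 (6.45%, beside 5.65%), the antioxidant motif in 3 (9.68%, beside 13.3%), and the glucocorticoid palindrome in 0, beside 0.00724%. This exact palindrome stood in only 1 of the 13818 promoters, so its count of 0 among 31 windows says nothing about the members. A match of letters is a description, and no binding was measured.

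Among the 7 classical genes, 2 of the 3 C1q chains were called lower after FeSO4 and none was called higher, with a median LFC of -0.16. C1qa, which encodes the A chain of C1q, had normalized counts of 1044, 1073 and 1052 in NaCl/PBS mice and 786, 787 and 846 in FeSO4/PBS mice, without overlap (LFC -0.39 ± 0.11 SE, edgeR FDR 0.00632, n = 3 per group). The C chain gene C1qc stood at 1054, 1118 and 1034 in NaCl/PBS and at 748, 707 and 730 in FeSO4/PBS (LFC -0.55 ± 0.12 SE, edgeR FDR 0.00171). C1qb, the B chain gene, was not called, and its groups overlapped, with 949, 1065 and 1054 in NaCl/PBS and 827, 749 and 977 in FeSO4/PBS (LFC -0.27, edgeR FDR 0.121). It was called lower with library-size scaling (LFC -0.58, edgeR FDR 0.0057). All 3 C1q chains are made mainly by macrophages, unlike the other classical components listed here, which come mainly from hepatocytes.

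The proteases and substrates of the classical pathway stayed close to control with TMM scaling. C1ra, the C1r protease gene, was somewhat higher, with LFC 0.23 and a 95% confidence interval from 0.015 to 0.445, but it was not called by the default fit (edgeR FDR 0.0664) and was called by DESeq2. C1s1, the C1s protease gene, had an LFC of -0.16, with an interval from -0.39 to 0.07. The convertase component genes C2 (LFC -0.01, interval -0.27 to 0.25) and C4b (LFC 0.05, interval -0.16 to 0.27) were not called either. Scaled by library size alone, C1s1 (LFC -0.48, edgeR FDR 0.00149) and C2 (LFC -0.33, edgeR FDR 0.0213) were called lower. C4b then turned to LFC -0.27 and was called lower too (edgeR FDR 0.0333). C4b has a close paralog, C4a, which encodes the sex-limited protein, and reads of the pair may be assigned to either gene or lost as multiply mapped. C2 shares 38.4% of its exon bases, and Cfb 65.7%, with the read-through gene Gm20547 on the same strand, which has 0 reads, so that counts of C2 and Cfb may lack the shared part.

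**Figure D2:**
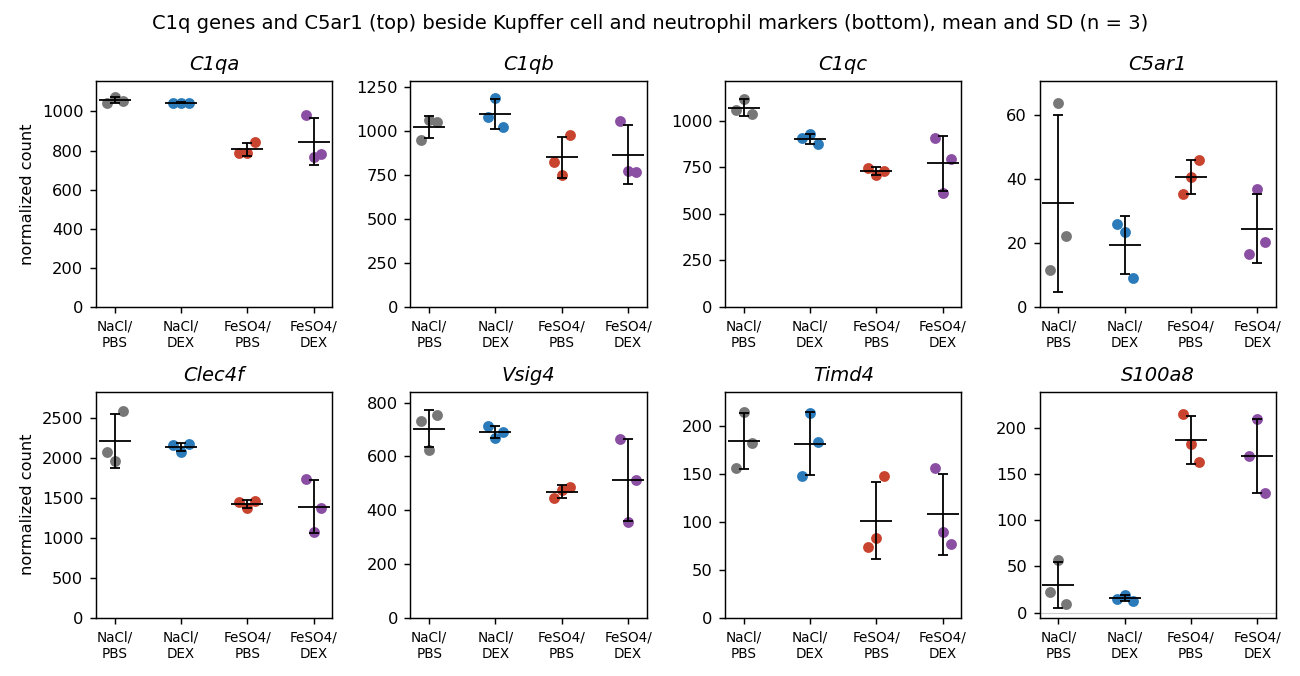
Normalized counts per mouse of the 3 C1q genes and C5ar1 (top row) and of the Kupffer cell markers Clec4f, Vsig4 and Timd4 and the neutrophil marker S100a8 (bottom row) in the 4 groups, with mean and SD (n = 3); the axes start at or just below 0. FeSO4/PBS mice lie below NaCl/PBS mice for C1qa, C1qc and the Kupffer cell markers and above them for S100a8, while C5ar1 is scattered in NaCl/PBS mice.

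Kupffer cells are the resident macrophages of the liver. Of 9 Kupffer cell markers, 7 were called lower after FeSO4 (Clec4f, Vsig4, Timd4, Cd5l, Marco, Adgre1 and Csf1r) and none higher, with a median LFC of -0.87. Among all tested genes 27.3% were called lower and 27.2% higher. The summed level of the 9 markers was 415 to 501 CPM in NaCl/PBS, 393 to 462 in NaCl/DEX, 223 to 262 in FeSO4/PBS and 176 to 305 in FeSO4/DEX mice, and no marker was at 0 in a group. Clec4f, a receptor restricted to Kupffer cells, had 2070, 1960 and 2590 normalized counts in NaCl/PBS and 1449, 1371 and 1460 in FeSO4/PBS (LFC -0.63, edgeR FDR 0.0032). In bulk tissue, fewer cells of a type and less RNA per cell cannot be told apart. The part of Kupffer cell content in the C1q values was not tested.

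In the lectin pathway, 1 of 5 genes was called after FeSO4, and the median LFC was -0.06. Masp1, which encodes the protease MASP-1, rose from 3940, 4129 and 3994 normalized counts in NaCl/PBS to 4549, 6930 and 5736 in FeSO4/PBS mice. The 2 ranges did not overlap, and the FeSO4/PBS mice spread more widely (LFC 0.51 ± 0.14 SE, edgeR FDR 0.00589). The paired protease gene Masp2 was not called (LFC -0.16, interval -0.38 to 0.05), and 60.3% of its exon bases overlap Tardbp on the opposite strand. The log2 ratio of Masp1 to Masp2 was -0.14 to -0.05 in NaCl/PBS and 0.19 to 0.77 in FeSO4/PBS mice, so that the ranges of this ratio did not overlap. Of the recognition molecules, Mbl1 (LFC -0.26, interval -0.50 to -0.02, edgeR FDR 0.0669), Mbl2 (LFC -0.06, interval -0.31 to 0.20) and the ficolin gene Fcna (LFC 0.12, interval -0.18 to 0.42) were not called. Mbl1 was called lower with at least 10 counts required in every library (LFC -0.28, edgeR FDR 0.0476). With library-size scaling, Mbl1 (LFC -0.58, edgeR FDR 0.0007), Mbl2 (LFC -0.37, edgeR FDR 0.0121) and Masp2 (LFC -0.48, edgeR FDR 0.000598) were called lower, and Masp1 was not called.

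None of the 3 tested alternative pathway genes was called after FeSO4 by edgeR with TMM factors or by DESeq2. None had an unadjusted edgeR p under 0.05 with TMM factors. C3 encodes the protein on which all pathways converge, and it was by far the most abundant member. Its normalized counts were 223086, 227094 and 202545 in NaCl/PBS, 222780, 232137 and 202723 in NaCl/DEX, 222694, 269571 and 231689 in FeSO4/PBS, and 264563, 231043 and 238728 in FeSO4/DEX mice. The FeSO4/PBS and NaCl/PBS values of C3 overlapped, and the LFC was 0.15 with an interval from -0.12 to 0.42 (edgeR FDR 0.332). Cfb, the gene of factor B, lay between 106 and 208 normalized counts over all 12 mice (LFC -0.33, interval -0.77 to 0.11), and 49.8% of its exon bases overlap Nelfe on the opposite strand. Cfp, the gene of properdin, a stabilizer of the alternative convertase, gave an LFC of -0.06 with an interval from -0.36 to 0.23. Scaled by library size alone, Cfb (LFC -0.645, edgeR FDR 0.0209) and Cfp (LFC -0.38, edgeR FDR 0.0438) were called lower. Cfd had 0, 4 and 0 reads in FeSO4/PBS and 0, 0 and 1 in NaCl/PBS mice. Factor D is known as adipsin from fat cells, and of 7 adipocyte markers Adipoq, Lep and Retn had at most about 1 normalized count in any mouse. The adipocyte markers summed to 21.0 to 26.1 CPM in NaCl/PBS and 98.6 to 126 CPM in FeSO4/PBS, through Cidec (LFC 7.26) and Fabp4 (LFC 2.29), which other cells also express, while Lipe was lower (LFC -1.87).

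Of the 6 terminal genes, 2 were called lower after FeSO4 and none higher, with a median LFC of -0.32. C8a, which encodes the alpha chain of C8, showed the largest fall among the genes of secreted components. Its normalized counts were 5628, 8211 and 8524 in NaCl/PBS, 5361, 8345 and 5346 in NaCl/DEX, 2672, 3112 and 4219 in FeSO4/PBS, and 4452, 4347 and 4913 in FeSO4/DEX mice. Every FeSO4/PBS mouse lay below every NaCl/PBS mouse (LFC -1.16 ± 0.21 SE, edgeR FDR 0.000378), and the call held with each mouse left out (LFC -1.36 to -1.02). The other chains of C8 were not called. C8b, the beta chain gene, had an LFC of -0.17 (interval -0.56 to 0.23), and C8g, the gamma chain gene, had an LFC of 0.30 (interval -0.01 to 0.60, edgeR FDR 0.0886). Without FeSO4/PBS mouse 3, C8g was called higher (LFC 0.44, edgeR FDR 0.0158). The log2 ratio of C8a to C8b was 1.15, 1.28 and 1.27 in NaCl/PBS, 0.75, 0.68 and 0.72 in NaCl/DEX, -0.04, 0.05 and 0.67 in FeSO4/PBS, and 0.48, 0.64 and 0.45 in FeSO4/DEX mice. In NaCl/PBS mice this ratio was higher than in any other mouse. C8g overlaps Fbxw5 on the opposite strand over 12.3% of its exon bases.

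Hc, the mouse gene of C5, fell from 18741, 19768 and 21428 normalized counts in NaCl/PBS to 12410, 15291 and 14845 in FeSO4/PBS mice, without overlap (LFC -0.49 ± 0.12 SE, edgeR FDR 0.00249). C6, which follows C5b into the attack complex, gave an LFC of -0.48 (interval -0.95 to -0.02, edgeR FDR 0.0741). C6 was called lower without NaCl/DEX mouse 2 (LFC -0.48, edgeR FDR 0.0215) or mouse 3 (LFC -0.48, edgeR FDR 0.0468), which enter through the shared estimate of spread. C6 was also called lower without a filter on low counts (edgeR FDR 0.00938), in a fit of the compared libraries alone (edgeR FDR 0.021) and with library-size scaling (LFC -0.80, edgeR FDR 0.00855). NaCl/DEX mouse 2 stood apart in C6 and C8b, with 645 and 5198 normalized counts beside 325 to 398 and 3191 to 3239 in the other NaCl/DEX mice. C9, the pore-forming component, was not called (LFC -0.10, interval -0.45 to 0.25). With library-size scaling, C8b (LFC -0.485, edgeR FDR 0.0425) and C9 (LFC -0.42, edgeR FDR 0.0336) were called lower.

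**Figure D3:**
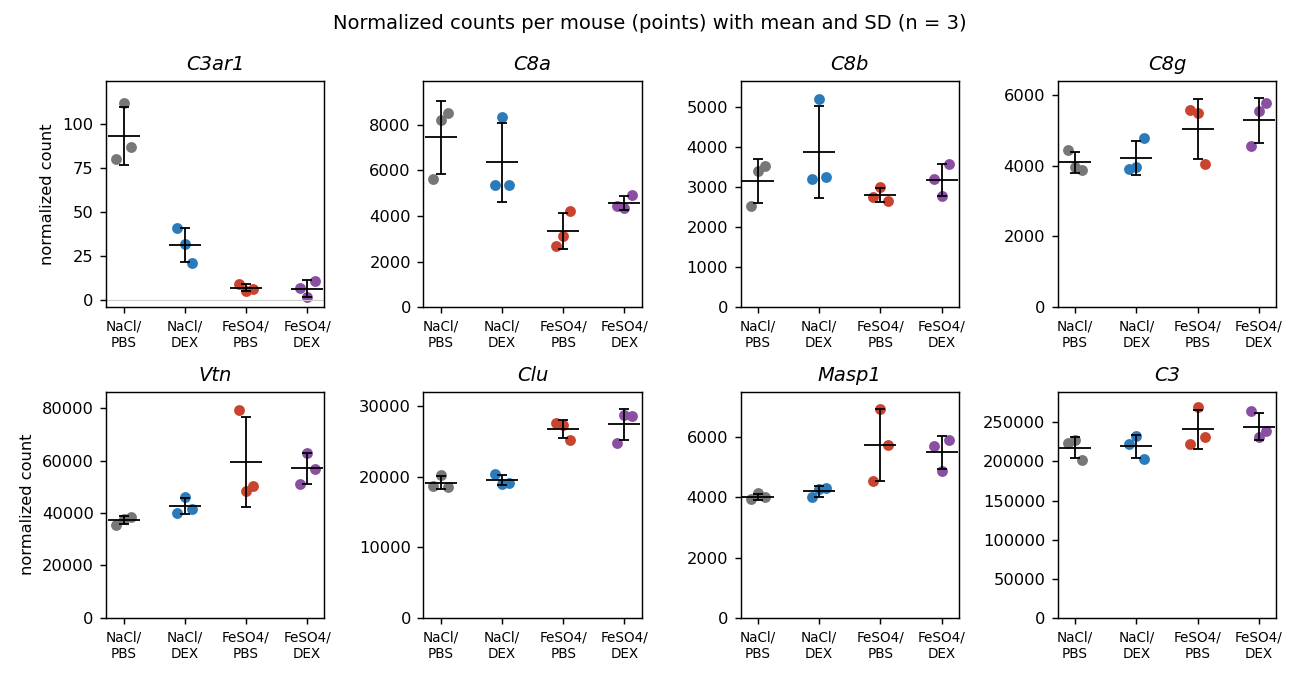
Normalized counts of C3ar1, the 3 C8 chain genes, Vtn, Clu, Masp1 and C3 per mouse in the 4 groups, with mean and SD (n = 3); the axes start at or just below 0. For C8a the FeSO4/PBS and NaCl/PBS mice do not overlap while for C8b and C8g they do, and C3ar1 is lower in every treated group. Vtn, Clu and Masp1 are higher in FeSO4 mice, and their calls in PBS mice are lost when scaling by library size alone. In DEX mice Vtn was not called, and of Clu and Masp1 only the Clu call held under that scaling.

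The soluble regulators moved in both directions after FeSO4, with 2 of 5 called higher and 1 lower, and a median LFC of 0.02. Vtn encodes vitronectin, which binds the terminal complex and keeps it from membranes. Its normalized counts were 35575, 37865 and 38455 in NaCl/PBS, 40081, 45898 and 41673 in NaCl/DEX, 79186, 48380 and 50379 in FeSO4/PBS, and 51224, 62837 and 56831 in FeSO4/DEX mice. FeSO4/PBS mouse 1, which also stood apart over all genes, was far above the other mice. The lowest FeSO4/PBS mouse was still above the highest NaCl/PBS mouse (LFC 0.67 ± 0.17 SE, edgeR FDR 0.0041). With single mice left out, the LFC of Vtn ranged from 0.41 to 0.80 and the edgeR FDR from 0.0019 to 0.0177. Clu encodes clusterin, a chaperone that also inhibits the terminal complex, and had 18723, 20212 and 18523 normalized counts in NaCl/PBS and 27703, 27393 and 25269 in FeSO4/PBS mice. The Clu groups were tight and well apart (LFC 0.48 ± 0.11 SE, edgeR FDR 0.00163). C4bp, which encodes the C4b-binding protein that dissociates the classical convertase, fell from 10337, 11205 and 10487 to 7628, 7330 and 7151 normalized counts (LFC -0.53 ± 0.11 SE, edgeR FDR 0.000949). Serping1, the gene of C1 inhibitor, stayed at 14237 to 15457 in NaCl/PBS and 14266 to 15624 in FeSO4/PBS (LFC 0.02, interval -0.19 to 0.24). It turned to LFC -0.30, with an edgeR FDR of 0.0157, when scaled by library size alone. Cfi, the gene of the protease factor I, had an LFC of -0.05 (interval -0.26 to 0.17). It was called lower with library-size scaling (LFC -0.365, edgeR FDR 0.00875).

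Both membrane regulators had LFCs below zero, and 1 of them was called lower. Cd59a encodes an inhibitor of the attack complex on the cell surface. It stood at 918, 782 and 947 normalized counts in NaCl/PBS and at 496, 627 and 482 in FeSO4/PBS mice, without overlap (LFC -0.72 ± 0.13 SE, edgeR FDR 0.000297). The paralog Cd59b, with 28.1 to 52.5 normalized counts over all mice, was not called (LFC -0.26, edgeR FDR 0.405). Cd55 encodes decay-accelerating factor and was not called (LFC -0.42, interval -0.998 to 0.164). Cd55 was called lower without FeSO4/PBS mouse 3 (LFC -0.71, edgeR FDR 0.0482), without a filter on low counts (LFC -0.42, edgeR FDR 0.0318) and with library-size scaling (LFC -0.73, edgeR FDR 0.0454).

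The receptor gene C3ar1 showed the largest difference of all members. It encodes the receptor for the anaphylatoxin C3a, carried by macrophages and other myeloid cells. Its normalized counts were 80.6, 112 and 87.2 in NaCl/PBS, 40.8, 32.0 and 21.1 in NaCl/DEX, 9.07, 5.09 and 6.38 in FeSO4/PBS, and 6.77, 1.36 and 10.7 in FeSO4/DEX mice. The NaCl/PBS mice lay above all 9 treated mice, and all FeSO4 mice lay below all NaCl/DEX mice. After FeSO4, C3ar1 was 13.3-fold lower (LFC -3.74 ± 0.43 SE, edgeR FDR 7.27e-06), and the call held with each mouse left out (LFC -4.00 to -3.55). This rested on 5 to 9 reads per FeSO4/PBS library and 103 to 120 per NaCl/PBS library. C5ar1, the C5a receptor gene of neutrophils and macrophages, was not called (LFC 0.35, interval -0.79 to 1.48). Its NaCl/PBS mice ranged widely, with 11.5, 63.6 and 22.0 normalized counts, beside 35.3, 40.7 and 45.9 in FeSO4/PBS mice. NaCl/PBS mouse 2, the highest for C5ar1, also had the highest S100a8 value of its group, at 57.0 normalized counts beside 22.3 and 9.31. Without that mouse, C5ar1 was called higher after FeSO4 (LFC 1.28, edgeR FDR 0.0435).

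Markers of myeloid cells moved in opposite directions beside these receptors. Of 9 neutrophil markers, 7 were tested and 5 were called higher after FeSO4 (S100a8, S100a9, Retnlg, Cxcr2 and Mmp8), with a median LFC of 2.79. The neutrophil list summed to 6.71 to 16.2 CPM in NaCl/PBS, 4.93 to 6.50 in NaCl/DEX, 40.8 to 48.7 in FeSO4/PBS and 31.03 to 36.44 in FeSO4/DEX mice, with 1 marker without a read in both NaCl groups. Of 7 monocyte markers, 5 were tested, of which 1 was called higher (Plac8) and 2 lower (Ccr2 and Ms4a4c) after FeSO4, and the summed level was 10.5 to 13.1 CPM in NaCl/PBS and 14.0 to 16.1 in FeSO4/PBS mice. None of the 9 Kupffer cell and none of the 5 monocyte markers was called between NaCl/DEX and NaCl/PBS mice, where C3ar1 was called lower. In that comparison the monocyte markers had a median LFC of -1.09, and 2 of the 5 had an unadjusted p under 0.05. Of the 7 neutrophil markers 1 was called lower (Csf3r, LFC -1.06, edgeR FDR 0.0182), with a median LFC of -0.97 over the list and 4 at an unadjusted p under 0.05. Among all tested genes 13.7% were called after DEX, and 3718 had an unadjusted p under 0.05. Of the 8 sinusoidal endothelial markers 2 were called lower (Kdr and Gpr182) and 1 higher (Lyve1) after DEX. The part of these cell types in the receptor values was not tested. Of the other lists, 6 of 10 hepatocyte markers were higher and 0 lower after FeSO4, 1 was higher and 5 lower of 8 for sinusoidal endothelium, and 3 were higher and 1 lower of 7 for stellate cells. For lymphocytes 0 were higher and 2 lower of 5, for mesothelium 0 higher and 1 lower of 3, and none of 5 pancreatic acinar genes was tested. After FeSO4, 27.2% of all tested genes were called higher and 27.3% lower.

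**Figure D4:**
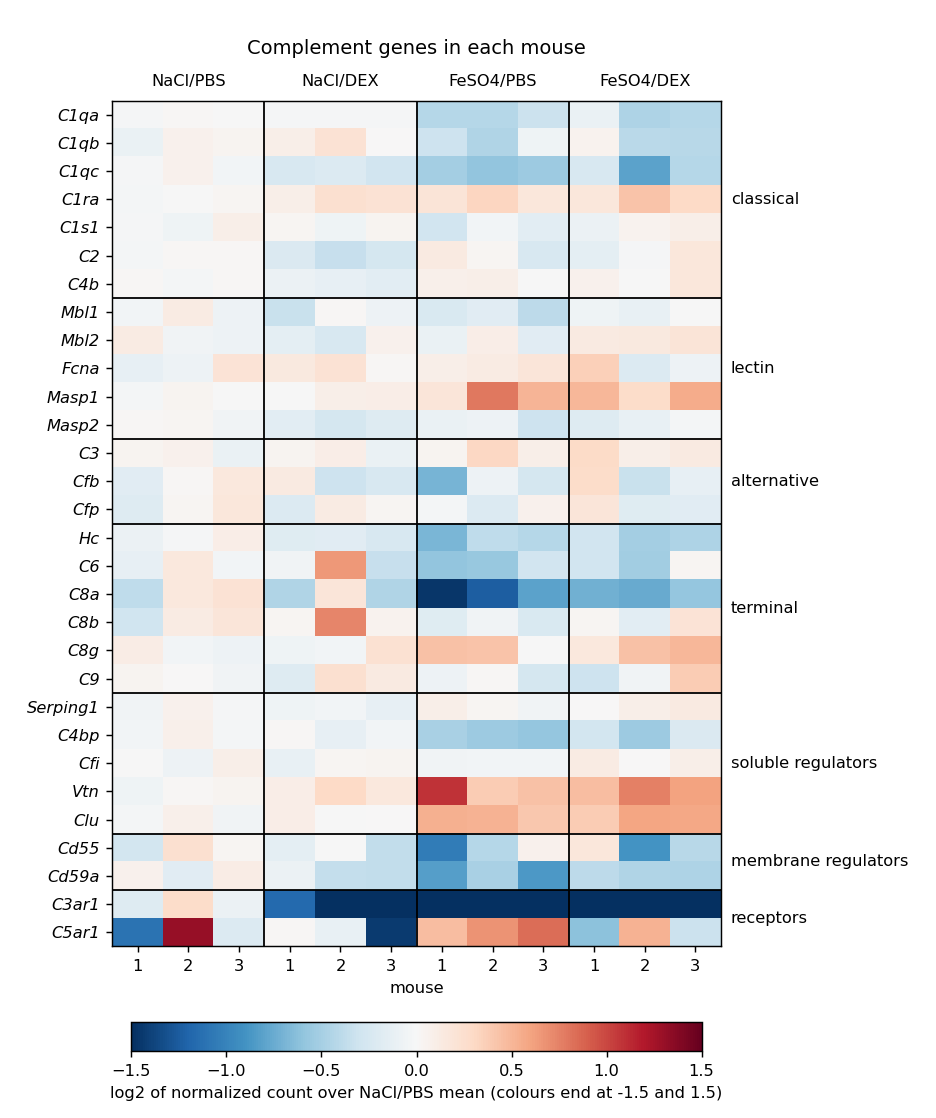
Log2 of each mouse's normalized count over the NaCl/PBS mean for the 30 tested members (rows, by pathway) in the 12 mice (columns, by group), with TMM scaling; blue is lower and red higher, and colours end at 1.5 in both directions. C3ar1 is blue in all 9 treated mice and C8a in all 6 FeSO4 mice, while Clu, Vtn and Masp1 are red in all 6 FeSO4 mice; scaling by library size alone would shift the FeSO4 columns towards blue.

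DEX alone changed 1 complement gene. In NaCl/DEX against NaCl/PBS mice, which share their controls with the FeSO4 comparison, C3ar1 was called lower (LFC -1.57 ± 0.35 SE, edgeR FDR 0.00816). That is 3.33% of the 30 tested members, beside 13.7% of all tested genes, and with an LFC beyond 1 it is 3.33% beside 6.38%. The NaCl/DEX mice did not overlap with the NaCl/PBS mice, and C3ar1 stayed called with each mouse left out (LFC -1.80 to -1.36). Cd59a (LFC -0.27, edgeR FDR 0.185) and C2 (LFC -0.28, edgeR FDR 0.161) had an unadjusted p under 0.05 and were not called. With C3ar1, 3 members had such a p, beside 3718 of the 13857 tested genes. For 28 of 30 members the 95% confidence interval of the DEX effect lay within 1 of zero, and for 19 it lay within 0.5, on the log2 scale. C3 had an LFC of 0.01 with an interval from -0.26 to 0.28.

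After FeSO4, DEX gave no call. In FeSO4/DEX against FeSO4/PBS mice, 0 of 30 members and 0% of all tested genes were called by edgeR, with 2 members (C8a and Cd59a) and 900 genes at an unadjusted p under 0.05. DESeq2 called 11 genes there, and 0 members. Both members tended upward, C8a with an LFC of 0.46 (interval 0.01 to 0.90, edgeR FDR 0.762) and Cd59a with an LFC of 0.28 (interval 0.01 to 0.55, edgeR FDR 0.762). The Cd59a values were 496, 627 and 482 in FeSO4/PBS and 668, 643 and 640 in FeSO4/DEX mice, and the C8a values, given above, did not overlap either. For C3ar1 the LFC was -0.09, with an interval from -1.29 to 1.11, at 1 to 9 reads per FeSO4 library. The interval lay within 1 of zero for 28 members and within 0.5 for 22.

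The DEX responses in FeSO4 and NaCl mice were compared by the interaction term. Of all tested genes 6.18% were called, and of the 30 members 0 were called by edgeR and 0 by DESeq2. An unadjusted p under 0.05 was found for 3 of the 30 members, beside 2830 of the 13857 tested genes. The 3 members were Cd59a (difference in LFC 0.55, interval 0.17 to 0.93, edgeR FDR 0.09), C8a (0.69, interval 0.06 to 1.32, edgeR FDR 0.203) and C3ar1 (1.48, interval 0.04 to 2.92, edgeR FDR 0.231). Cd59a was called without FeSO4/PBS mouse 2 (difference 0.68, edgeR FDR 0.0324). The loss of the C3ar1 call under DEX after FeSO4 is thus not shown to be a difference between the responses.

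The FeSO4 effect in mice that also received DEX gave 5 calls among the members. Between FeSO4/DEX and NaCl/DEX mice, the latter shared with the DEX comparison, 2 members were called higher (Masp1 and Clu) and 3 lower (C1qa, C4bp and C3ar1). These 5 make 16.7% of the tested members, beside 43.3% of all tested genes, with 22.4% higher and 20.9% lower. Only C3ar1 also passed an LFC beyond 1, which is 3.33% beside 20.5%. C3ar1 again showed the largest value (LFC -2.25 ± 0.46 SE, edgeR FDR 0.0013). Clu had 20453, 19049 and 19167 normalized counts in NaCl/DEX and 24850, 28789 and 28705 in FeSO4/DEX mice (LFC 0.49 ± 0.11 SE, edgeR FDR 0.0021). The Clu and C3ar1 calls held with each mouse left out and with library-size scaling. In this comparison 11 members had an unadjusted p under 0.05, beside 7081 of the 13857 tested genes. Not called were 6 of the 11 members. Of these, Vtn (LFC 0.42, edgeR FDR 0.0574), C8g (LFC 0.33, edgeR FDR 0.078), C2 (LFC 0.28, edgeR FDR 0.0787) and Mbl2 (LFC 0.26, edgeR FDR 0.0876) had LFCs above zero. C1qb (LFC -0.34, edgeR FDR 0.0629) and C8a (LFC -0.475, edgeR FDR 0.0799) had LFCs below zero.

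The other calls between FeSO4/DEX and NaCl/DEX mice were less stable. Masp1 (LFC 0.39, edgeR FDR 0.0328) was no longer called without FeSO4/DEX mouse 1 or 3, any NaCl/DEX mouse, or NaCl/PBS mouse 1 or 3 (LFC 0.30 to 0.41, edgeR FDR 0.0533 to 0.153), nor with library-size scaling (LFC 0.20). C1qa (LFC -0.30, edgeR FDR 0.0322) was lost without FeSO4/DEX mouse 2 or 3 or any NaCl/DEX mouse (LFC -0.31 to -0.27, edgeR FDR 0.0696 to 0.1), and without a filter on low counts (edgeR FDR 0.0889). C4bp (LFC -0.29, edgeR FDR 0.043) was lost without FeSO4/DEX mouse 1 or 2, FeSO4/PBS mouse 2, or NaCl/DEX mouse 1 or 3 (LFC -0.33 to -0.24, edgeR FDR 0.0518 to 0.124). C4bp was also lost without a filter on low counts (edgeR FDR 0.103) and in a fit of the compared libraries alone (edgeR FDR 0.0536). FeSO4/DEX mouse 1 lay nearest to control for C1qa, at 984 normalized counts beside 769 and 784. It was also the highest of its group for the Kupffer cell marker Clec4f, at 1731 beside 1068 and 1375. Whether the C1qa and Clec4f values of this mouse are linked was not tested.

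Side by side, the terminal genes had the lowest median of the 4 pathways in both PBS and DEX mice. The median LFC after FeSO4 in PBS mice was -0.16 for classical, -0.06 for lectin, -0.06 for alternative and -0.32 for terminal genes, and in DEX mice it was 0.02, 0.09, 0.09 and -0.25. The medians of all tested genes were -0.015 in PBS and 0.014 in DEX mice. In DEX mice the lower terminal median rested on NaCl/DEX mouse 2, without which the medians were -0.015, 0.134, 0.034 and -0.037. The called share in PBS mice, with TMM scaling, was 28.6% of classical, 20% of lectin, 0% of alternative and 33.3% of terminal genes. All of these lay below the 54.5% called among all tested genes. These shares depend on the scaling. With library size alone, further genes were called lower in each pathway, Cfb and Cfp among the alternative genes. With 3 to 7 tested genes in each, these are descriptions, and the pathways were not tested against each other.

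Per length of transcript, C3 made up a large share of the complement transcript pool. Over merged exons, C3 reached 2119 ± 128 CPM per kilobase (SD, n = 3) in NaCl/PBS livers, which was 44.0% of the summed level of the 31 members. Vtn followed at 595 ± 24.3 CPM per kilobase, then Cfi (278 ± 16.4), Mbl2 (259 ± 20.4), Serping1 (245 ± 10.5) and C4b (194 ± 4.02). Neighbours among Cfi, Mbl2 and Serping1 differ by less than their SDs combined and give no firm order. Of the tested members, C5ar1 (0.64 ± 0.54), C3ar1 (0.94 ± 0.17) and Cfb (2.54 ± 0.29) were lowest, and the untested Cfd lay below them at 0.015. Counts of Cfb may lack the 65.7% of its exon bases shared with Gm20547, while its full exon length was used. The level of Cfb may thus be understated and its place in this order is not firm, and C2 (38.4% shared) is affected likewise. By the length of the canonical transcript instead of merged exons, C3 had 33.2% of the pool, Vtn 1076 ± 43.9 and Clu 532 ± 25.7 CPM per kilobase. The order of the other genes thus depends on the transcript length assumed.

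**Figure D5:**
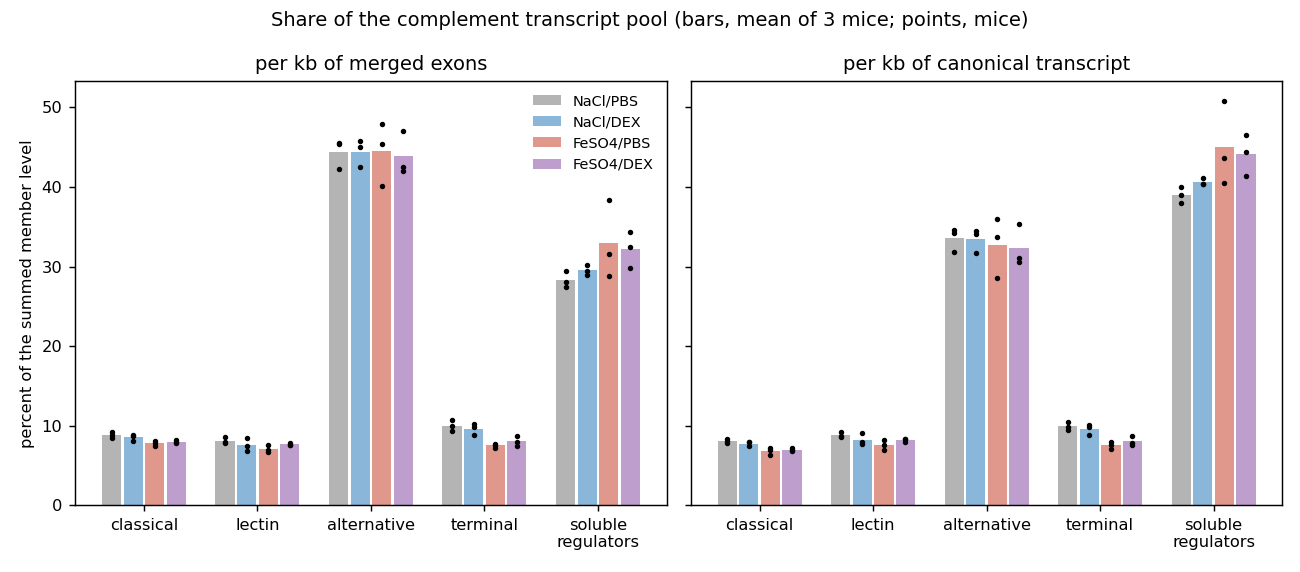
Share of the summed complement level, in percent of CPM per kilobase, taken by each pathway and by the soluble regulators in the 4 groups, by merged exon length (left) and by canonical transcript length (right); bars are means of 3 mice and points are mice. The alternative group, nearly all C3, has 44.4% by merged exons and 33.6% by canonical length in NaCl/PBS mice, and by either length the terminal share is lower in FeSO4/PBS mice.

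By pathway, terminal components took 10.0% ± 0.63 (SD, n = 3) of the pool in NaCl/PBS and 7.54% ± 0.28 in FeSO4/PBS mice, by merged exons. The classical share was 8.89% ± 0.38 and 7.80% ± 0.32, and the lectin share 8.12% ± 0.39 and 7.10% ± 0.41. Soluble regulators took 28.3% ± 1.04 in NaCl/PBS and 32.9% ± 4.90 in FeSO4/PBS mice, with Vtn highest in FeSO4/PBS mouse 1. The C3 share was 44.0% ± 1.87 and 44.1% ± 3.99. Shares of one pool are tied to each other, so a rise in one lowers the others. The summed level of all members was 4817 ± 102 CPM per kilobase in NaCl/PBS and 5328 ± 275 in FeSO4/PBS mice with TMM scaling, whereas their share of all counts was 2.36% to 2.46% and 2.05% to 2.24%, so the direction of the total depends on the scaling.

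The other genes of the system were taken from a list of 30 complement genes outside the 31, of which 23 were tested. After FeSO4, 4 were called higher and 7 lower, 47.8% of those tested beside 54.5% of all tested genes. C5ar2, the second C5a receptor, had 49.6, 44.0 and 44.0 normalized counts in NaCl/PBS, 21.5, 17.9 and 12.1 in NaCl/DEX, and 3.02, 3.05 and 1.28 in FeSO4/PBS mice. It was called lower after FeSO4 (LFC -4.12) and after DEX (LFC -1.42, edgeR FDR 0.0112), as C3ar1 was. Cd93, named as a C1q receptor and found on endothelium and myeloid cells, rose from 124, 138 and 160 to 913, 1322 and 1370 normalized counts (LFC 3.09), and after DEX to 225, 287 and 277 (LFC 0.90, edgeR FDR 0.0209). C7, the terminal component missing from the 31, was called higher at low counts, from 7.91, 7.48 and 5.08 to 22.2, 28.5 and 15.3 (LFC 1.68, edgeR FDR 0.0181). C4a, the paralog of C4b, rose from 75.5, 54.2 and 51.6 to 158, 241 and 176 normalized counts (LFC 1.66), far below the 22731 to 24646 of C4b in the same mice.

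Among the pentraxins and proteases outside the 31, the calls were lower. C1rl, a C1r-like protease gene, fell from 2349, 2462 and 2500 to 1336, 1346 and 1055 normalized counts (LFC -0.97). The pentraxin genes Apcs (LFC -0.89, edgeR FDR 0.0012) and Crp (LFC -0.66, edgeR FDR 0.0177) were lower, and C1qbp, which encodes a mitochondrial protein that can bind C1q, was higher (LFC 0.69). Vsig4, the complement receptor of Kupffer cells that also stands among their markers, and Cpn2 were called lower as well. The paralogs C1rb and C1s2 had at most 1.69 and 2.82 normalized counts in any mouse, and Cd55b had 0.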

How the data were processed

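Bulk RNAseq of liver was made from 12 mice in 4 groups of 3. The authors prepared stranded mRNA libraries, mapped single-end reads to mm39 with STAR 2.7.10b and GENCODE splice junctions, and deposited raw counts per Ensembl gene from STAR's gene counting, without normalization. The strand column used is not given in the sources used here, so overlapping genes on opposite strands are named. The authors' own test was DESeq2.

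From the counts, 54749 of 55414 genes received a GENCODE vM39 symbol, and 30401 genes had no count. With R 4.3.3 and edgeR 4.0.16, filterByExpr kept 13857 genes, TMM factors (0.871 to 1.16) were computed, and 1 quasi-likelihood model of the 4 groups gave LFCs, 95% confidence intervals and Benjamini-Hochberg FDRs over all tested genes. The labels number the mice but name no litters or batches. The p-values measure the spread between mice, with 3 per group, so that an exact permutation test of 1 gene could not go below p = 0.1. The model was tested on simulated data. Alternatives were DESeq2 1.42.0, its size factors, library size alone, other filters, a replicate block, fits of the compared libraries alone, an LFC beyond 1 and each mouse left out. Canonical transcript length, in place of merged exons, was added after the data had been seen.

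All 31 members are named. Values per mouse are given for members called with an LFC beyond 1 or called after DEX, and, by choice after their values were seen, for the other called members, C1qb, C3, C5ar1 and the genes named beside them. Other complement genes named were those called with the largest LFC after FeSO4 and paralogs of members. Some genes of that list are counted with it and otherwise not reported here. The members and all lists (7 member classes, 30 other complement genes, 10 marker lists) were chosen with earlier results of these data known. Promoters and motif matches were read from GRCm39. Python 3.11.15, pandas 2.3.3 and matplotlib 3.10.9 were used.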

Additional observations from a re-analysis of the deposited data

How the results depend on the processing

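Counts of called members changed most with the scaling. With library size alone, FeSO4 gave 0 higher and 22 lower members in PBS mice and 1 higher and 9 lower in DEX mice, DEX gave 4 lower members in NaCl mice (Cd59a, Masp2, C3ar1 and C2), and 1 interaction (Cd59a) was called. C4b (LFC -0.27) and Serping1 (LFC -0.30) then turned to lower calls after FeSO4. Under the same scaling the median LFC after FeSO4 in PBS mice became -0.48 for classical, -0.37 for lectin, -0.38 for alternative and -0.64 for terminal genes, -0.30 for soluble regulators, -0.88 for membrane regulators and -2.01 for receptors. In DEX mice it became -0.18 for classical, -0.11 for lectin and -0.45 for terminal genes and -0.041 for soluble regulators. These shifts follow that of all tested genes, -0.34 in PBS mice and -0.18 in DEX mice.

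With an LFC beyond 1 required, FeSO4 left 0 higher and 2 lower members in PBS mice and 0 higher and 1 lower in DEX mice. With at least 10 counts in every library, 0 members were called after DEX, since C3ar1 was not tested there. DESeq2 called 4 members higher in FeSO4/DEX against NaCl/DEX mice. Without a filter on low counts, 1 interaction was called (C8a), C6 and Cd55 were called lower after FeSO4 in PBS mice, and C1qa and C4bp were lost in DEX mice. DESeq2's size factors, and fits of the compared libraries alone, moved no count of members by more than 1.5 times.

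With 1 mouse left out at a time, FeSO4 in PBS mice gave 3 to 4 higher and 7 to 8 lower members, and in DEX mice 1 to 3 higher and 1 to 6 lower. Interactions called numbered 0 to 1. The median LFC after FeSO4 in PBS mice ranged from -0.154 to 0.025 for alternative genes, -0.42 to -0.25 for terminal genes and -1.95 to -1.15 for receptors. In DEX mice it ranged from -0.046 to 0.069 for classical, 0.018 to 0.134 for lectin, -0.102 to 0.168 for alternative and -0.343 to -0.037 for terminal genes, and from 0.098 to 0.191 for soluble regulators.

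Same-numbered mice correlated with r of -0.09 to 0.13. Between NaCl/DEX and NaCl/PBS, same-numbered mice gave 0.129, 0.109 and 0.052, and differently numbered mice -0.151 to 0.03. With 3 mice per group, these values cannot decide whether the labels' numbers pair the mice. With the replicate block, FeSO4 gave 3 higher and 7 lower members in PBS mice and 2 higher and 2 lower in DEX mice, where C4bp was lost. Precision is limited by the small groups and, for C3ar1 and C5ar1, by low counts.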
